A study of Mus musculus with 282 samples.

Results

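Single hematopoietic stem cells (HSCs) were compared by their RNA content, estimated for each well from the external spike-in RNAs counted beside the cell's own transcripts. RNA content was the sum of counts on mouse genes divided by the sum of counts on the ERCC spike-in rows. Within each combination of library series, HSC code and plate, the kept cells were ranked by this ratio. Each ranking was split into 3 parts of equal size, rounded down for the outer ones. The lowest part formed the low class, the highest part the high class, and the middle class was left out of the comparison. The members were thus selected on measured gene and spike-in counts. Of 282 cells in all, 232 passed the minimum of 100000 gene counts and 1000 detected genes and were kept. The low and the high class held 74 cells each and the middle class 84. The ratio chose the classes, so its own values are a description and carry no test. The comparison was of composition, that is, of each gene's share of a class's gene counts, in CPM, counts scaled to a common library total.

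All cells were HSCs from bone marrow in the gate LSK CD48-/lo CD150+, which is one that keeps marrow cells without lineage markers but with Sca-1, Kit and CD150 on the surface. All mice were homozygous at both modified loci, rtTA/rtTA at Rosa26 and H2B-GFP/H2B-GFP at Col1a1, and none was induced with doxycycline, so both classes share 1 genotype and 1 untreated condition. The series description gives 6 mice aged 12 to 22 weeks and 2 experiments, under a title about mitotic activity of primitive HSCs. The labels name no mouse for a cell, and the 2 library series (29 and 32) crossed with the HSC codes give 6 sets. Library series 29 holds the sets called L29 HSC-3 and L29 HSC-4, and library series 32 those called L32 HSC-2, HSC-3, HSC-4 and HSC-5. The sets are not separate plates: the labels put L29 HSC-3 in columns 1 to 6 and L29 HSC-4 in columns 7 to 12 of plate 1, and the 4 L32 codes in alternating columns that share plate numbers. Low and high were compared within sets, the sets are not known to be animals, and p-values speak of the spread from set to set, part of which may be technical.

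Most adult HSCs rest outside the cell cycle, in a state known for small cell size, little RNA and low protein synthesis. A cell that leaves this state enlarges in G1, makes more ribosomes and nucleotides, and then copies its DNA in S phase and divides. The D and E cyclins with Cdk4, Cdk6 and Cdk2 release E2F transcription factors from the retinoblastoma protein, and E2F drives the genes of DNA replication.

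RNA content differed between the classes by construction, with set medians of 8.78 to 18.6 gene counts per spike-in count in the low and 17.2 to 44.4 in the high class. The ratio of the 2 medians was 2.38 in L29 HSC-3, 4.22 in L29 HSC-4, 1.56 in L32 HSC-2, 1.92 in L32 HSC-3, 1.44 in L32 HSC-4 and 1.42 in L32 HSC-5, with a median of 1.74. The classes were therefore farthest apart in the L29 sets. Median gene counts of the high class were 1.02 to 1.53 times those of the low class, and median spike-in counts were 0.324 to 0.820 times, so the spike-in counts contributed in every set. At the edges of the classes the cells formed a continuum. In L29 HSC-3 the highest low cell stood at 25.9 and the next cell at 26.1, and the lowest high cell at 35.5 with the cell before it at 33.9. In L32 HSC-3 plate 2, 1 cell of the low class stood far below all others at 0.468. It had 116009 gene counts, not far above the minimum, and 247919 spike-in counts, of 550851 in the low class of its set. It was the only kept cell of plate column 5, and whether it held an intact cell was not tested.

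**Figure D1:**
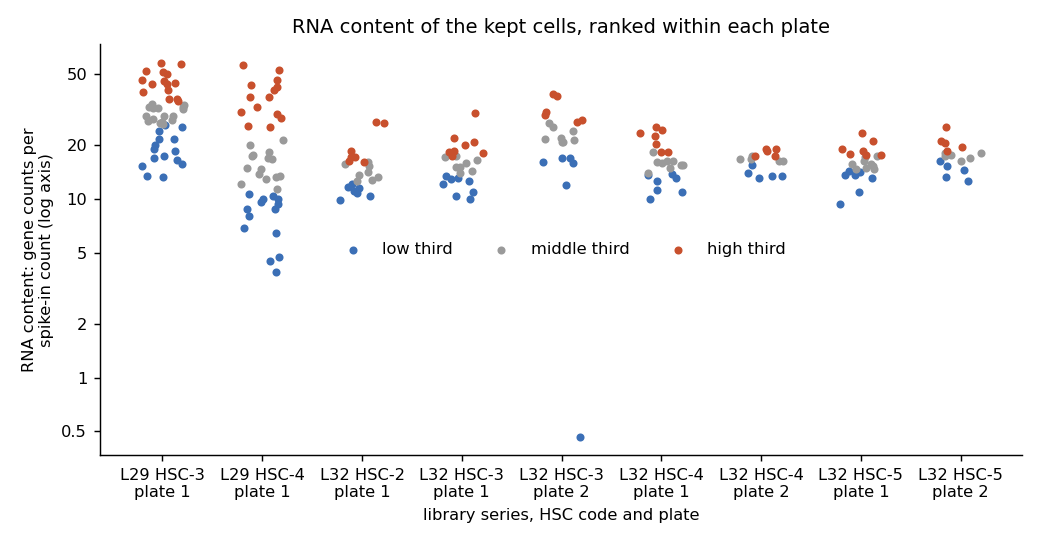
RNA content of each kept cell (vertical log axis, gene counts per spike-in count) by library series, HSC code and plate, with the low, middle and high class in blue, grey and red. The classes adjoin within each ranking, the 2 L29 sets spread most, and 1 low cell of L32 HSC-3 plate 2 lies at 0.468.

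Kept cells had 116009 to 1680714 gene counts, with medians of 241728 in the low and 312227 in the high class. The labels' protocols describe template-switching cDNA, 22 PCR cycles and no molecular identifiers, so the counts are of reads and not of RNA molecules. L29 HSC-4 stood apart, with a mitochondrial share of 8.35% in its low cells against 3.03% to 5.01% in the low cells of the other sets. Plate position moved with the classes in both L29 sets and on some L32 plates. In L29 HSC-3, plate column 1 held 8 kept cells with a median of 44.2 gene counts per spike-in count, 6 of them in the high and 0 in the low class, and column 6 stood at 20.8. In L29 HSC-4, columns 7 to 8 held 1 low and 7 high cells of 15, and columns 9 to 12 held 13 low and 7 high cells of 28. In L32 HSC-3 plate 2, column 10 held 0 low and 5 high cells of 8, and column 12 held 4 low and 1 high. On plate 1 of series 32, column 9 of HSC-2 held 5 low and 2 high cells of 8, column 11 of HSC-4 held 0 and 3, and column 12 of HSC-5 held 0 and 4. The part of plate position in the results was not tested as such, but the comparison was repeated with cells ranked within each plate column. Wells that held almost no cell RNA gave a background level: 38 near-empty wells, all of the L32 sets with codes HSC-2 and HSC-3, carried 0.121 gene counts per spike-in count, which equals 0.658% to 1.64% of the gene counts in the low sums and 0.273% to 0.661% in the high sums. Of 9689 genes tested, 2063 (21.3%) had a higher CPM in these wells than in the kept cells of the same sets.

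**Figure D2:**
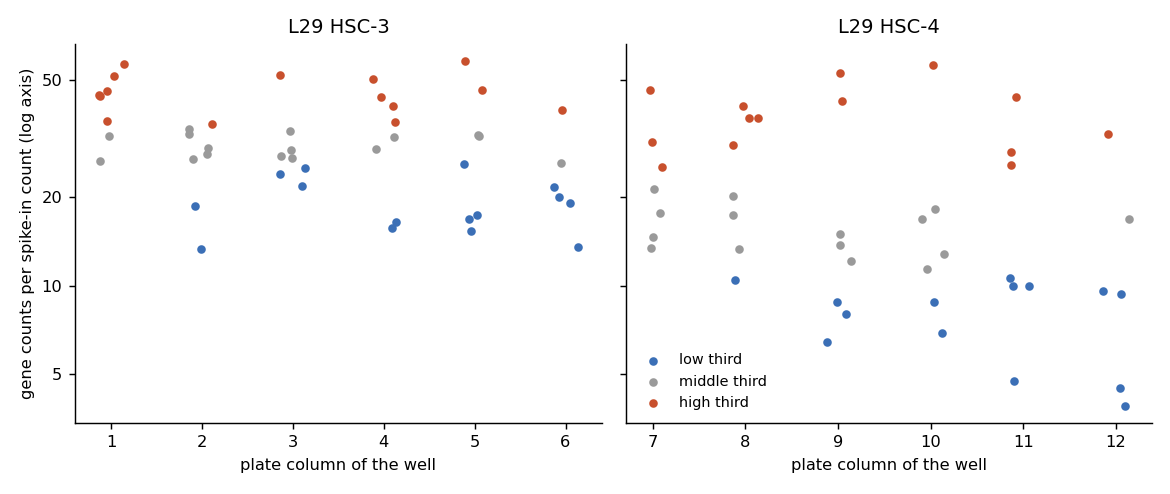
RNA content (vertical log axis, gene counts per spike-in count) by plate column of the well in the 2 L29 sets, 1 point per kept cell, coloured by class. The first column of L29 HSC-3 holds 6 high and 0 low cells, and low cells of L29 HSC-4 lie mostly in columns 9 to 12.

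More genes were detected per cell in the high class than in the low class in every set. After each cell was thinned to 100000 gene counts, low cells had 3785 ± 451 genes and high cells 5050 ± 463 (SD, n = 6 sets). The difference of 1265 ± 469 genes was positive in 6 of 6 sets, from 751 in L32 HSC-2 to 1879 in L29 HSC-3 (exact two-sided sign-flip permutation test over sets, p = 0.031, the smallest that 6 sets allow). The set means include single cells far from the rest. At equal depth 1 high cell of L29 HSC-3 had 10918 genes, 1 high cell of L32 HSC-3 had 10221 and 1 low cell of L32 HSC-3 had 8486. Without thinning the difference was 1491 genes. Thinning evens out the counts of the cells and not the number of RNA molecules captured per well. The classes were chosen on gene counts per spike-in count, and the part of this choice in the difference was not tested. The 100 genes with the highest mean CPM over all kept cells took 20.5% ± 4.0 of a low cell's counts and 18.0% ± 0.8 of a high cell's. These are means over cells within sets, with the SD over 6 sets. The share was lower in the high class in 6 of 6 sets (exact sign-flip permutation test, p = 0.031). This second gap was widest in L29 HSC-4, at -8.81 percentage points, and between -0.401 and -0.667 in the 4 L32 sets.

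Cells with transcripts of G2 and mitosis were found mainly in the high class. A cell was counted when at least 5 of 30 G2 and M phase genes reached 10 CPM. This held for 1 of 74 low cells (1.35%, exact 95% interval 0.0342% to 7.30%), 4 of 84 middle cells (4.76%, 1.31% to 11.7%) and 13 of 74 high cells (17.6%, 9.70% to 28.2%). These intervals pool the cells of all sets and leave out the spread between sets. By set, the high share ran from 8.33% in L32 HSC-5 to 25% in L32 HSC-4. The difference of the set shares, high minus low, was 16.2 ± 7.6 percentage points (SD, n = 6 sets) and positive in 6 of 6 sets (exact two-sided sign-flip permutation test, p = 0.031). In several sets the sign rested on 1 cell. L32 HSC-2 and L32 HSC-5 each had 1 such cell in the high and 0 in the low class, and L29 HSC-3 had 2 and 1. Without L29 HSC-4 the counts were 1 of 60 low and 10 of 60 high cells. The 18 cells in all had a median RNA content of 1.51 times the median of their set and plate, with a range of 0.889 to 2.91. Their median was 5482 genes at equal depth, against 4193.5 in all other kept cells. The other cells of the high class had medians of 4750 genes and 1.35 times. Of the 13 high cells, 4 had 5 of the list genes and 3 had 6. The call counts detected genes, and the part of genes per cell in it was not tested. Mki67, a proliferation marker that was under the filter for testing, reached 10 CPM in 2 low, 4 middle and 7 high cells. In summed counts it stood at 4.15 CPM in the low, 2.72 in the middle and 37.4 in the high class. The DNA topoisomerase Top2a stood at 32.8, 14.4 and 78.9 CPM, and the mitotic kinase Cdk1 at 11.7, 9.82 and 42.4 CPM, in the same order. Not all list genes followed this order, and the kinesin Kif23 stood at 123.6 CPM in the low and 17.4 CPM in the high class. The summed level of the 30 genes was higher in the high class in 5 of 6 sets, at a median of 2.00 times. It was 0.949 times in L29 HSC-3, and the ranges of the low and high sums overlapped.

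**Figure D3:**
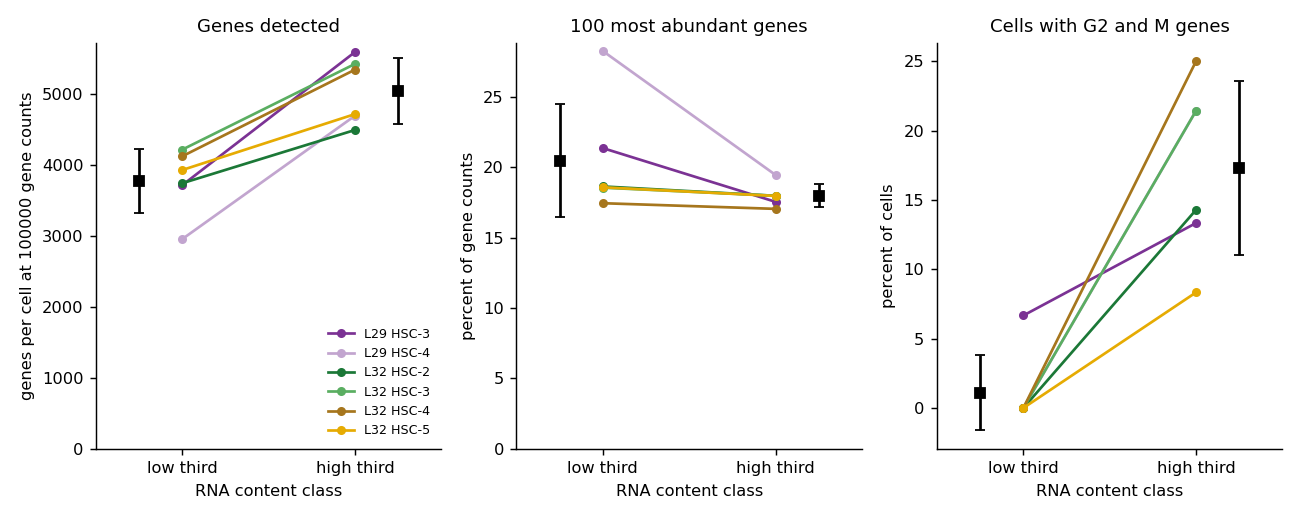
Left, genes per cell at equal depth. Centre, mean percent of a cell's gene counts on the 100 genes most abundant over all kept cells. Right, percent of cells with at least 5 G2 and M phase genes. Each line joins the low and high class of 1 set, and black squares and bars give the mean and SD over 6 sets. All 6 lines rise in the left and right panel and fall in the central one, and in the right panel L29 HSC-4 and L32 HSC-3 share 1 line.

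Gene by gene, the counts of each class were summed within each set and compared with the set as a block. Genes were tested where at least 10% of all kept cells reached 10 CPM. Of 9689 genes, edgeR's quasi-likelihood test called 0 at an adjusted p of 0.05 (smallest adjusted p = 0.873), and 492 (5.08%) had an unadjusted p under 0.05, 380 of them higher in the high class (3.92%) and 112 lower (1.16%). DESeq2 on the same sums called 315 genes (3.25%), 268 higher (2.77%) and 47 lower (0.485%). Limma on the mean log value over cells called 247 (2.55%), 246 higher (2.54%) and 1 lower (0.0103%). The 2 latter methods shared 42 genes, all with higher values in the high class, and 38 of these were higher in 6 of 6 sets. The gene-level calls thus depended on the method, and the gene groups below are described by their values, their counts and the number of sets that share a direction. The reference for all of them is the whole table, in which 6305 genes (65.1%) had a log2 fold change above 0, with a median of 0.34, 434 (4.48%) were higher in 6 of 6 sets and 197 (2.03%) lower in 6 of 6. The lowest high sum lay above the highest low sum for 73 genes (0.753%), and the highest high sum below the lowest low sum for 8 (0.0826%). With TMM factors in edgeR the median over all genes was 0.22. Apart from 15 genes named by rule (Myc, Mycn, Npm1, Ncl, Txnip, Cdk6, Kit, Ly6a, Slamf1, Procr, Vwf, Cd34, Hspa5, Mki67 and Malat1), the genes named here were chosen after their values were seen.

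DNA replication genes had higher levels in the high class, in sums that did not overlap. Of 32 S phase genes, 26 were tested, and all 26 had higher values in the high class, with a median log2 fold change of 1.68 against 0.34 over all genes tested. Of these 26, 12 were higher in 6 of 6 sets, 14 had an unadjusted edgeR p under 0.05, 11 were called by DESeq2 and 8 by limma, and the 6 high sums did not overlap the 6 low sums for 6. The summed level of all 32 genes was 1702 ± 433 CPM in the low, 1752 ± 389 in the middle and 4182 ± 1235 in the high class (SD, n = 6 sets). Low sums ran from 1131 to 2252 CPM and high sums from 3048 to 6515 CPM, so the classes did not overlap. The middle class stayed near the low class and exceeded it in 2 of 6 sets. Within sets the high sum was 1.71 to 4.98 times the low sum, with a median of 2.08, and the widest ratio was in L32 HSC-4.

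Without the cells with G2 and M genes (73 low and 61 high cells remained), the high sum of the S phase genes was above the low sum in 6 of 6 sets, at a median of 1.73 times, and 23 of 26 genes had higher values with a median log2 fold change of 1.33. With cells ranked within plate columns the count was 26 of 26 and the median 2.71, and in library series 32 alone 25 of 26 and 1.92. With near-empty wells subtracted it was 26 of 26 and 1.67. When cells were classed by their gene counts alone, without the spike-ins, 24 of 26 genes had higher values and the median was 0.41, against 0.06 over all genes.

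Among single replication genes, values are given as the lowest, the median and the highest of the 6 sets, with the edgeR log2 fold change and its SE. Gene positions are in mm10 and were taken from the count table. Cdca7 (chromosome 2, 72476159 to 72486893), a chromatin protein and target of Myc and E2F, stood at 44.8, 56.6 and 127 CPM in the low sums and 212, 311 and 428 CPM in the high sums, a difference of 2.26 ± 0.39 on the log2 scale. Every high sum lay above every low sum, and Cdca7 had at least 1 count in 21.6% of low and 70.3% of high cells at equal depth. The adjusted p for Cdca7 was 3.45e-05 in DESeq2, 0.0111 in limma and 0.873 in edgeR. Pcna (chromosome 2, 132249162 to 132253314), the sliding clamp of the replication fork, stood at 38.1, 50.5 and 87.2 CPM in the low sums and 128, 178 and 197 CPM in the high sums (1.66 ± 0.35 log2). Its groups did not overlap either, but the pseudogene Pcna-ps2 had a log2 fold change of 1.76, and reads of the pair may have been split between them. Uhrf1 (chromosome 17, 56303321 to 56323486), which guides DNA methylation to newly copied DNA, stood at 0, 0.194 and 13.1 CPM in the low sums and 29.3, 51.9 and 111 CPM in the high sums. In the low class it was thus close to absent, and it had a count in 2.70% of low and 29.7% of high cells at equal depth. Dtl (chromosome 1, 191537356 to 191575544), which targets the licensing factor Cdt1 for degradation, stood at 0.539, 2.83 and 8.55 CPM in the low sums and 22.7, 65.5 and 138 CPM in the high sums. Cdt1 itself (chromosome 8, 122568015 to 122573554) stood at 0, 6.31 and 25.6 CPM in the low sums and 35.7, 84.9 and 173 CPM in the high sums. For Uhrf1, Dtl and Cdt1 the low sums lay near 0 in some sets, so that their fitted log2 fold changes of 6.64, 4.68 and 5.04 depend on the prior count of the fit.

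The 6 subunits of the replicative helicase had higher values in the high class in 5 or 6 of 6 sets each. Mcm2 (chromosome 6, 88883474 to 88898780) stood at 9.32, 50.7 and 117 CPM in the low sums and 116, 265 and 336 CPM in the high sums (2.50 ± 0.62 log2), and its highest low sum lay just above its lowest high sum. Mcm4 stood at 25.9, 96.1 and 122 CPM in the low sums and 159, 200.3 and 326 CPM in the high sums (1.49 ± 0.47 log2) with no overlap. Mcm3, Mcm5, Mcm6 and Mcm7 had log2 fold changes of 1.35, 2.59, 1.06 and 1.24, and the ranges of their low and high sums overlapped. Rrm1, the large subunit of ribonucleotide reductase, was higher in 4 of 6 sets and lower in L29 HSC-3 and L32 HSC-5, with 0.777, 89.4 and 223 CPM in the low sums and 52.4, 263 and 405 CPM in the high sums.

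**Figure D4:**
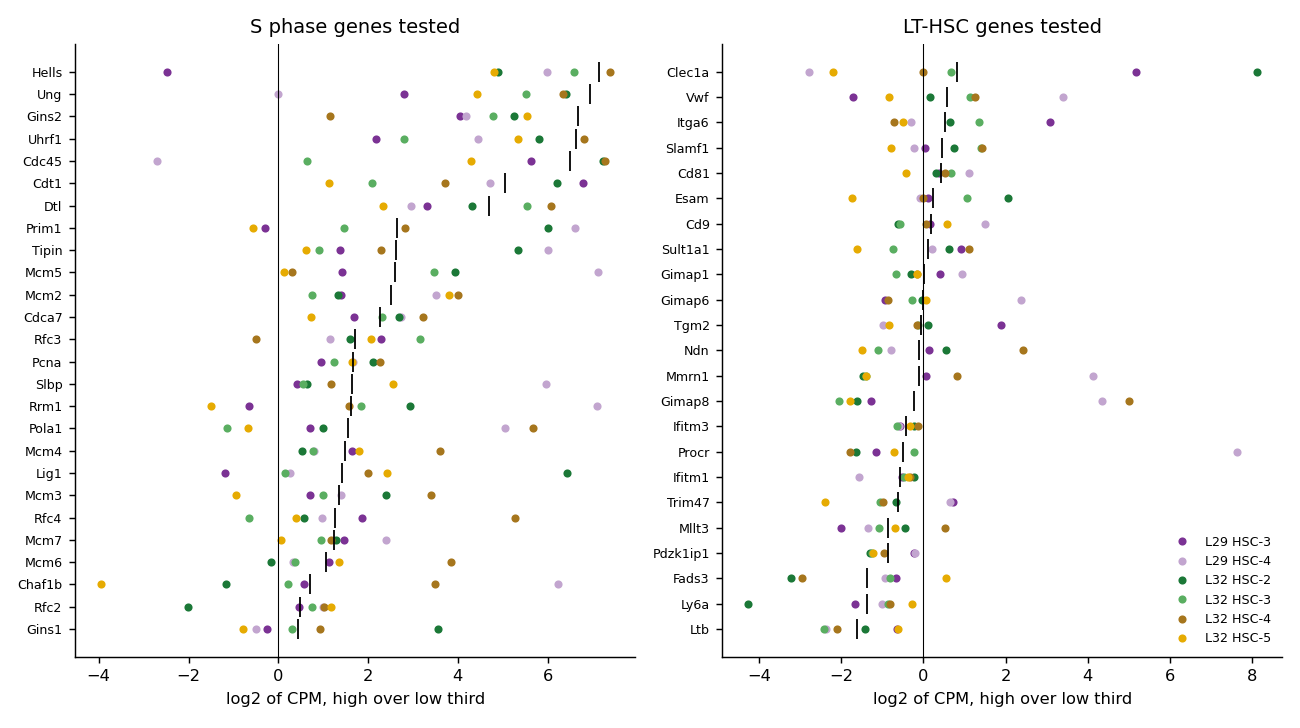
Log2 of the CPM in the high over the low class for each tested gene of the S phase list and of the long-term HSC (LT-HSC) list, 1 point per set and a black bar for the edgeR estimate, sorted by that estimate. All 26 black bars of the S phase list lie above 0, while the LT-HSC bars lie on both sides, and points for genes with a low sum near 0 reach 6 or more.

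The promoters of the S phase genes were read for the E2F core. The list was made of replication genes, which E2F is known to drive. A high share of matches is therefore a trait of the list and says nothing about the RNA content classes. The sequences are those of RefSeq for the build GRCm38.p6, where 21 of the 26 tested S phase genes matched by symbol. The letters searched were TTCCCGC as well as TTCGCGC, besides TTGCCGC and also TTGGCGC, on both strands, in the 250 bases before and 50 bases after the annotated start. Overlapping matches were allowed. At least 1 match was present in 15 of 21 promoters (71.4%), against 1214 of 6658 promoters of tested genes (18.2%) and 2618 of 27025 promoters in all (9.69%). The letters CCAAT on either strand were present in 14 of 21 (66.7%) against 38.9% of promoters of tested genes and 37.9% of all promoters. The E-box CACGTG was present in 1 of 21 (4.76%) against 11.2% and 7.24%. The 150 bases before the start are printed 5′ to 3′ for 4 genes, 3 with a match and Mcm2 without one, with the matched letters in capitals. In Mcm6 each capital run is a pair of overlapping matches on opposite strands. A match is a description of the letters and shows no binding, and the absence of a match concerns this window only.
Dtl (chr1:191575545-191575694, minus strand): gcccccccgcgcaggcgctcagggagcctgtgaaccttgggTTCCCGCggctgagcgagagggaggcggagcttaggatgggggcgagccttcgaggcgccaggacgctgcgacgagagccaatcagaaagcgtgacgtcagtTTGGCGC
Mcm6 (chr1:128359706-128359855, minus strand): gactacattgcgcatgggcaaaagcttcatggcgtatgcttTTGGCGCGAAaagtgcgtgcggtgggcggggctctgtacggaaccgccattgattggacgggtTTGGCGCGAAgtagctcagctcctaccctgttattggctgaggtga
Rrm1 (chr7:102441545-102441694, plus strand): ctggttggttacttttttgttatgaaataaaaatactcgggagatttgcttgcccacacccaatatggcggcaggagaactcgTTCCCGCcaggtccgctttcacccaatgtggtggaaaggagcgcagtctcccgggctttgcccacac
Mcm2 (chr6:88898781-88898930, minus strand): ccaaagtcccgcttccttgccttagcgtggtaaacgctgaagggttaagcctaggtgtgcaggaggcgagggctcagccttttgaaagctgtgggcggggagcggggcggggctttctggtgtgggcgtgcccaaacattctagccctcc

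Nucleotide synthesis genes, which supply the precursors of both RNA and DNA, differed in the same direction. Of 25 tested (26 listed), 24 had higher values in the high class, with a median log2 fold change of 0.93, and 9 were higher in 6 of 6 sets. Unadjusted edgeR p-values were under 0.05 for 5, DESeq2 called 4 and limma 10. The summed level was 2150 ± 519 CPM in the low, 2932 ± 431 in the middle and 3635 ± 511 in the high class (SD, n = 6 sets). Unlike the S phase sum, it was above the low class already in the middle class in 6 of 6 sets. Low sums ended at 2768 CPM and high sums began at 3154 CPM. Tyms (chromosome 5, 30058202 to 30073617), the enzyme that makes thymidylate, stood at 0, 7.32 and 24.2 CPM in the low sums and 68.9, 106 and 205 CPM in the high sums (4.71 ± 1.26 log2, DESeq2 adjusted p = 6.25e-05, limma adjusted p = 0.0191). Umps, the last enzyme of uridylate synthesis, stood at 0.777, 24.3 and 66.6 CPM in the low sums and 67.5, 84.2 and 209 CPM in the high sums (2.43 ± 0.84 log2). Paics, an enzyme of purine synthesis, stood at 37.6, 296 and 441 CPM in the low sums and 463, 637 and 707 CPM in the high sums (1.37 ± 0.52 log2). For all 3 the low and high sums did not overlap. When cells were classed by gene counts alone, 16 of 25 genes had higher values and the median was 0.25.

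Genes of the G1 engine were split. Of 8 tested members of the G0 exit list (12 listed), 7 had higher values, with a median of 1.24 on the log2 scale. The median was 2.08 without L32 HSC-2 and turned to -0.07, with 4 of 8 genes higher, when cells were classed by gene counts alone. Cdk6 (chromosome 5, 3341485 to 3531008), a kinase whose level is known from human HSCs to set how readily they leave G0, stood at 1.35, 12.5 and 55.3 CPM in the low sums and 108, 125 and 163 CPM in the high sums. The lowest high sum lay well above the highest low sum, and the log2 fold change was 3.23 ± 0.81 (adjusted p = 0.000805 in DESeq2, 0.0191 in limma and 0.891 in edgeR). Cdk6 had a count in 25.7% of low and 62.2% of high cells at equal depth. With classes by gene counts alone its log2 fold change was 0.15. The middle class, at a median of 114 CPM, was close to the high class. Cdk4 stood at 231, 342 and 531 CPM in the low sums and 602, 694 and 812 CPM in the high sums (1.00 ± 0.25 log2), and its near-empty level of 575.6 CPM was above that of kept cells. Cdk2 was higher in 5 of 6 sets, with 0.541, 28.3 and 221 CPM in the low sums and 96.1, 169 and 249 CPM in the high sums. Ccnd2, which encodes cyclin D2, had a log2 fold change of -0.22 ± 0.15 and was higher in 2 of 6 sets. Of 14 tested quiescence genes, 7 had higher and 7 lower values, with a median of 0.14, below that of all genes. The summed level of the 25 listed quiescence genes was 3241 ± 659 CPM in the low and 2461 ± 177 CPM in the high class (SD, n = 6 sets), lower in the high class in 5 of 6 sets at a median of 0.752 times.

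**Figure D5:**
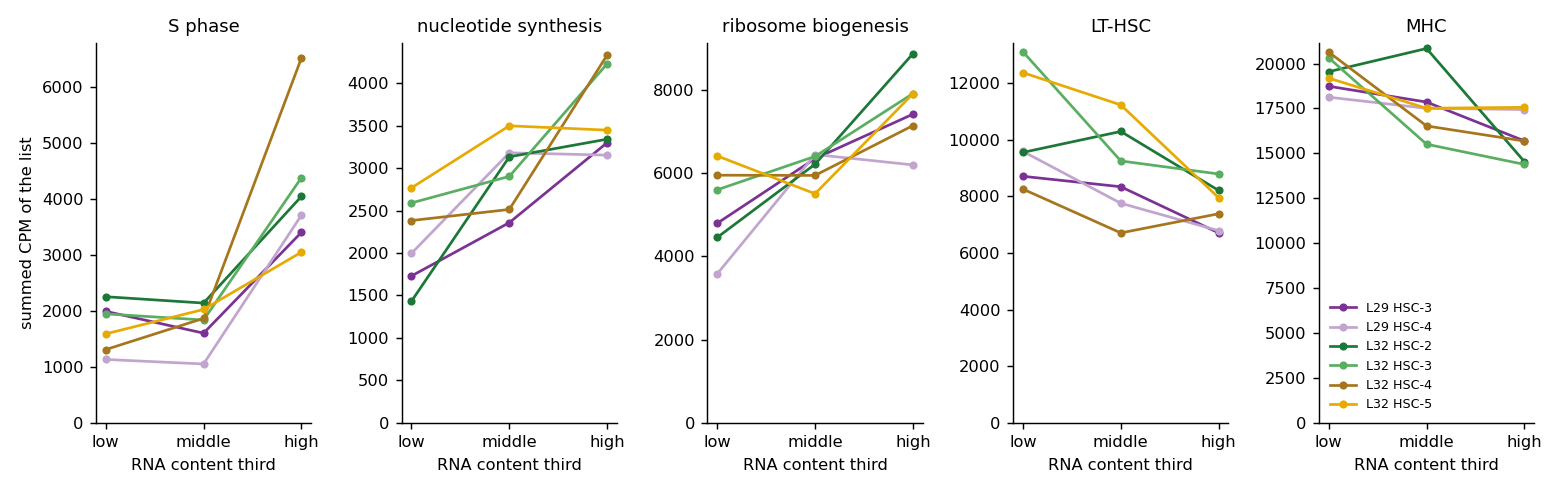
Summed CPM of 5 gene lists in the low, middle and high class, 1 line per set. S phase sums in the middle class lie near the low class and those of the high class above 3000 CPM, nucleotide synthesis and ribosome biogenesis sums are higher in the high than in the low class in 6 of 6 sets, and LT-HSC and MHC sums are lower in 6 of 6.

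Genes that build ribosomes had higher values in the high class, and most ribosomal protein genes had lower ones. Of 39 tested ribosome biogenesis genes, 36 had higher values in the high class, with a median log2 fold change of 0.70, and 6 were higher in 6 of 6 sets. Unadjusted edgeR p-values were under 0.05 for 8, DESeq2 called 2 and limma 8. The summed level was 5129 ± 1050 CPM in the low, 6141 ± 362 in the middle and 7571 ± 895 in the high class (SD, n = 6 sets), and within sets the high sum was 1.20 to 1.99 times the low one. Nop2 (chromosome 6, 125131909 to 125144753), an rRNA methyltransferase of the nucleolus, stood at 0.388, 39.0 and 79.2 CPM in the low sums and 112, 169.8 and 348 CPM in the high sums (2.79 ± 0.84 log2). Its groups did not overlap. Nop58, a core protein of small nucleolar particles, stood at 0.777, 127 and 215 CPM in the low sums and 283, 369 and 549.8 CPM in the high sums (2.18 ± 0.88 log2), but its near-empty level of 322.6 CPM was above the 252.2 CPM of kept cells. Gnl3, the nucleolar GTPase nucleostemin, stood at 46.0, 91.4 and 264 CPM in the low sums and 153, 319 and 447 CPM in the high sums (1.55 ± 0.38 log2) and was higher in 6 of 6 sets with overlapping ranges. Npm1, the abundant nucleolar chaperone, was higher in 6 of 6 sets at 0.51 ± 0.16 on the log2 scale, and Ncl, nucleolin, in 4 of 6 at 0.70 ± 0.53, widest in L29 HSC-4. With cells classed by gene counts alone, 25 of 39 genes had higher values and the median was 0.17.

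Of 23 tested genes for rRNA transcription by RNA polymerases I and III, 18 had higher values with a median of 0.50, but in library series 32 alone the count was 12 of 23 and the median 0.02. Of 32 translation factors, 24 had higher values with a median of 0.24, below that of all genes. Eif3b, a scaffold subunit of the initiation factor eIF3, had the largest log2 fold change of the list. It stood at 0.777, 11.9 and 35.9 CPM in the low sums and 54.8, 103 and 154 CPM in the high sums (3.14 ± 0.85 log2). Of 47 cytosolic ribosomal protein genes, 40 had lower values in the high class, with a median log2 fold change of -0.19. Their summed level was 47917 ± 11684 CPM in the low and 40305 ± 3903 CPM in the high class (SD, n = 6 sets), lower in 5 of 6 sets. The low sum of L29 HSC-4 stood apart at 70984 CPM, against 46618 CPM in its high class and 40520 to 48855 CPM in the low class of the other sets. Without L29 HSC-4, 10 of the 47 genes had higher values and the median was -0.09. Near-empty wells carried a higher CPM than kept cells for 31 of these 47 genes, and with near-empty counts subtracted the count was again 40 of 47 and the median -0.19. Rplp1, a stalk protein, was lower in 6 of 6 sets at -0.61 ± 0.13 on the log2 scale.

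Regulators of growth and energy supply came next. Of 23 tested mTOR and growth signalling genes, 13 had higher values, with a median of 0.15, below that of all genes. The sum of the 28 listed was higher in the high class in 2 of 6 sets, at a median of 0.871 times. Of 10 tested Myc network genes, 7 had higher values, with a median of 0.43. The Myc network sum was higher in 5 of 6 sets, at a median of 1.30 times, and was 0.592 times in L32 HSC-3. Myc, a transcription factor that drives ribosome and nucleotide genes, stood at 159, 338 and 439 CPM in the low sums and 175, 533 and 954 CPM in the high sums, was higher in 5 of 6 sets and differed by 0.63 ± 0.30 on the log2 scale (edgeR adjusted p = 0.891). It had a count in 45.9% of low and 79.7% of high cells at equal depth. Mycn, the paralog that HSCs also use, was higher in 4 of 6 sets (0.39 ± 0.26 log2). Srm (chromosome 4, 148591503 to 148594993), the spermidine synthase and a Myc target, stood at 8.63, 42.4 and 152 CPM in the low sums and 65.0, 231 and 314 CPM in the high sums (2.26 ± 0.43 log2) and was higher in 6 of 6 sets. Slc25a5 (chromosome X, 36795651 to 36798807), which exchanges ADP and ATP across the inner mitochondrial membrane, stood at 73.0, 116 and 194 CPM in the low sums and 230.1, 387 and 459 CPM in the high sums (1.60 ± 0.33 log2), with a near-empty level of 342.1 CPM above the 225.5 CPM of kept cells. Hspa5, the main chaperone of the endoplasmic reticulum, was higher in 3 of 6 sets (0.30 ± 0.29 log2).

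Genes of long-term HSCs took a smaller share of the high class. Of 23 tested LT-HSC genes (31 listed), 14 had lower values, with a median log2 fold change of -0.11 against 0.34 over all genes, and 5 were lower in 6 of 6 sets against 2.03% of all genes. Their summed level was 10268 ± 1998 CPM in the low, 8933 ± 1669 in the middle and 7641 ± 825 in the high class (SD, n = 6 sets), lower in 6 of 6 sets. The gene median changed sign with the settings: it was 0.13 in limma and 0.56 in library series 29 alone, against 0.30 and 0.68 over all genes, 0.03 without the cells with G2 and M genes, 0.06 without L32 HSC-3 and 0.09 without L32 HSC-5. Ly6a (chromosome 15, 74994877 to 74998031), which encodes the sorting marker Sca-1, stood at 391, 555 and 775 CPM in the low sums and 19.3, 302 and 341 CPM in the high sums (-1.38 ± 0.51 log2). Every high sum lay below every low sum, and the widest difference was in L32 HSC-2. Ltb (chromosome 17, 35194439 to 35196320), which encodes lymphotoxin beta, stood at 137, 302 and 800.1 CPM in the low sums and 39.5, 97.7 and 200.2 CPM in the high sums (-1.62 ± 0.35 log2, DESeq2 adjusted p = 0.00194, limma adjusted p = 0.189). Mecom (chromosome 3, 29951296 to 30548008), the transcription factor Evi1 that HSCs need for self-renewal, stood at 177, 313 and 432 CPM in the low sums and 45.2, 105 and 205 CPM in the high sums (-1.49 ± 0.31 log2, DESeq2 adjusted p = 0.000225, limma adjusted p = 0.328). Ltb and Mecom were both lower in 6 of 6 sets with overlapping ranges.

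Set against the spike-ins instead of the cell's own transcripts, Mecom and Ltb had nearly equal values in both classes and Ly6a a higher one in the high class. Per 1000 spike-in counts, Mecom had a median over sets of 3.10 counts in the low and 3.28 in the high class, Ltb 3.36 and 3.27, and Ly6a 5.13 and 7.17. On the same scale Cdca7 had 0.548 and 8.18 and Cdk6 0.159 and 2.58. These values contain the ratio that chose the classes and are given without a test.  The share of cells with at least 1 count at equal depth was 56.8% low and 64.9% high for Mecom, and 77.0% and 78.4% for Ly6a.

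Over the wider list of HSC identity genes, the gene count and the summed level differed in direction. Of 29 tested genes, 17 had higher values, with a median of 0.11, 2 were lower in 6 of 6 sets and 0 higher in 6 of 6. The summed level was 8479 ± 1181 CPM in the low and 7656 ± 933 CPM in the high class (SD, n = 6 sets), lower in the high class in 5 of 6 sets at a median of 0.914 times. Kit, the stem cell factor receptor, was higher in 1 of 6 sets (-0.64 ± 0.35 log2), and Cd34, a marker of HSCs with shorter-term activity in mouse, in 4 of 6 (1.27 ± 0.53 log2). Slamf1, which encodes CD150, was higher in 4 of 6 sets (0.45 ± 0.57 log2), Vwf, a marker of platelet-biased HSCs, in 4 of 6 (0.57 ± 0.85 log2), and Procr, which encodes EPCR, in 1 of 6 (-0.51 ± 1.20 log2). Slamf1, Vwf and Procr changed sign with the settings. Txnip, a thioredoxin inhibitor needed for HSC quiescence in mouse, stood at 1504, 2247 and 2697 CPM in the low sums and 1419, 1609.9 and 1861 CPM in the high sums and was higher in 1 of 6 sets (-0.43 ± 0.15 log2), but had a log2 fold change of 0.14 with classes by gene counts alone. Malat1, a nuclear long noncoding RNA, was lower in 6 of 6 sets (-0.45 ± 0.14 log2), most in L29 HSC-3. None of these was called by edgeR, DESeq2 or limma.

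Antigen presentation genes took a smaller share of the high class. Of 17 tested MHC genes, 12 had lower values, with a median of -0.18 on the log2 scale. The summed level was 19427 ± 949 CPM in the low, 17626 ± 1794 in the middle and 15885 ± 1369 in the high class (SD, n = 6 sets). It was lower in 6 of 6 sets, and the highest high sum, 17564 CPM, lay below the lowest low sum, 18128 CPM. The gene median was 0.05 in limma and 0.37 in library series 29 alone, against 0.30 and 0.68 over all genes. With classes by gene counts alone it was 0.18, against 0.06 over all genes. The sign of the gene median thus depended on the setting, and only in the last of these did it exceed the median of all genes. B2m (chromosome 2, 122147686 to 122153083), the common chain of MHC class I, stood at 7954, 8726 and 11921 CPM in the low sums and 5689, 7533 and 8369.6 CPM in the high sums (-0.40 ± 0.07 log2) and was lower in 6 of 6 sets. Near-empty wells carried B2m at 11072 CPM against 7174 CPM in kept cells. Genes of the H2 family are near-identical copies, so the split of reads among them is uncertain.

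The H2B-GFP transgene, which label-retention studies switch on with doxycycline, was counted in 19 of 232 kept cells of these uninduced mice. Only 3 cells had more than 10 counts, 1 low cell with 126 counts and 2 high cells with 61 and 22. The difference of log2(CPM + 1) of the set sums, high minus low, was 0.07 ± 2.85 (SD, n = 6 sets; exact sign-flip permutation test, p = 1). The mitochondrial share was 4.38% ± 2.07 in the low and 3.66% ± 0.30 in the high class (SD, n = 6 sets; exact sign-flip permutation test, p = 0.5). It was lower in the high class in both L29 sets, by 1.82 and 4.26 percentage points, and higher by 0.369 to 0.486 in the 4 L32 sets. The library series, taken as an interaction in edgeR, changed the difference of 0 of 9689 genes at an adjusted p of 0.05 and of 517 at an unadjusted p of 0.05 (5.34%).

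The sort and the spike-ins were checked in both classes. The 8 HSC markers summed to 2417 to 3135 CPM in the low and 1506 to 2377 CPM in the high sets, ranges that do not overlap, with 0 markers at 0, and 69 of 74 low and 74 of 74 high cells had at least 2 of them at 10 CPM. Of the T and NK cell markers, Lck stood at 2.69 CPM in the low and 14.8 in the high class and Nkg7 at 2.43 and 15.2, while the T cell receptor parts Cd3e and Cd3g were at 0.160 CPM or below in both. The 4 markers summed to 0.270 to 11.3 CPM in the low and 10.8 to 47.9 CPM in the high sets, and 3 high cells and 0 low cells carried 2 of them. The wider list of 13 T and NK cell genes, of which 0 passed the filter for testing, was higher in 6 of 6 sets. It summed to 0.270 to 11.6 CPM in the low and 11.7 to 49.1 CPM in the high sets, at a median of 5.73 times. Megakaryocyte markers ranged over 44.2 to 156.5 CPM in the low and 66.0 to 260.6 CPM in the high sets, and endothelial and stromal markers over 4.06 to 95.8 and 1.17 to 98.2 CPM. The myeloid genes Elane and Ctsg were at 0 in both classes, and the summed medians of the erythroid, myeloid, B cell and mast cell markers were 14 CPM or below. The part of these markers in the gene-level differences was not tested. Among the spike-ins themselves, edgeR called 0 of 54 rows (2 with an unadjusted p under 0.05, 3.7%) and DESeq2 called 1 (1.85%).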

How the data were processed

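The authors deposited raw read counts, 1 table with a row for each gene and a column for each cell. The tools named per the submitters' processing notes are GSNAP and featureCounts 1.6.2, and the build is mm10. The annotation was Ensembl release 87 by the name of the table. How strand and multi-mapping reads were handled was not given in the sources used here, so overlapping genes and near-identical copies are uncertain. Of 49764 rows, 49671 were mouse genes, 92 spike-ins and 1 the transgene, and only the first entered library sizes.

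The members and the 38 gene lists (886 genes) were chosen with earlier results of these data known. Deposited counts were summed per class within 6 sets and tested with edgeR 4.0.16 (library size without further factors, set as block, Benjamini-Hochberg adjustment). The fit was also run on simulated data, with an outcome not reported here. DESeq2 1.42.0, limma 3.58.1 on the mean over cells of log2(CPM/10 + 1), filters, classes and sets left out were alternatives. Set means were compared by exact sign-flip permutation tests in Python 3.11.15. Genes were named where an adjusted edgeR p was under 0.05 with 1 sign in 6 of 6 sets, where a list had 2 called members, and 15 in any case. The first 2 parts named 0 genes. R was 4.3.3. No 2 cells had identical counts, and no doublet caller was run on sorted single wells.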

Additional observations from a re-analysis of the deposited data

Results flagged for a closer look

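Of 56 values checked over the 6 sets for a set far from the others, 10 were picked out by Dixon's 95% critical value, which by its definition chance passes in about 1 in 20 groups. The 56 values share cells and are not independent. L29 HSC-4 was the distant set in 8 of them. In that set, which has the widest RNA content ratio, the log2 ratio of high over low was 3.90 for Ncl and 7.64 for Procr, the latter against low cells with almost no Procr counts. In the same set the median log2 ratio of a list stood apart at -1.33 for mitochondrially encoded genes, 1.99 for G0 exit, 1.26 for interferon response, 0.93 for the Gimap family, 1.02 for cytoskeleton and cell size, and 1.21 for lymphoid and multipotent progenitor genes. Ly6a stood apart in L32 HSC-2 at -4.27, and Malat1 in L29 HSC-3 at -1.22. The mitochondrial share moved in opposite directions in the library series, with a mean difference of -3.04 percentage points in the 2 L29 sets and 0.437 in the 4 L32 sets. This last difference was not tested.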

How the results depend on the processing

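The count of 0 genes called by edgeR was the same under 22 of 24 alternatives, including leaving out each set, TMM factors, other filters and classes by gene counts alone. It became 315 in DESeq2 and 247 in limma. The pairing of low and high by set was fixed by the design, and without this replicate block edgeR also called 0 genes, with 382 at an unadjusted p under 0.05. Ranking within plate columns, gene counts alone, and leaving out the cells with G2 and M genes were chosen after seeing the data. Among spike-ins, DESeq2 called 1 row in place of 0. With 5 sets the smallest possible p is 0.0625, and leaving out each set in turn gave 1142 to 1368 genes more per cell in the high class and 14.4 to 18.1 percentage points more cells with G2 and M genes. That second difference was 8.86 points with 2 classes in place of 3, 19.0 with 1 CPM in place of 10 CPM and 21.4 in thinned cells, each with p = 0.0625 in the exact sign-flip permutation test. The transgene difference turned to -0.606 under the stricter cell filter and -1.01 with ranking within plate columns, and ranged from -0.556 to 1.12 when each set was left out. Slamf1 turned to -0.12 under the stricter filter and -0.10 in library series 29 alone, Procr to 3.59 in library series 29 alone and 0.55 by gene counts alone, Vwf to -0.94 under the stricter filter and -0.44 by gene counts alone, and Txnip to 0.14 by gene counts alone. The causes were not tested. Limits of depth apply most to genes with few counts, and L32 HSC-2 has the fewest cells, with 7 per class.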

Other observations

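Protein folding and protein turnover genes were also measured. Of 29 chaperone and folding genes, 28 had higher values in the high class, with a median log2 fold change of 0.43, and their summed level was higher in 6 of 6 sets at 1.10 to 1.60 times. The count was 19 of 29 with classes by gene counts alone. Of 32 proteasome genes, 25 had higher values with a median of 0.28, below the 0.34 of all genes, and of 20 glycolysis genes 16, with a median of 0.32. Nuclear genes of oxidative phosphorylation were near balance, with 21 of 34 higher and a median of 0.07. The 15 mitochondrially encoded genes had higher values in 5 cases, with a median of -0.18. By set, the median log2 ratio was -0.28 in L29 HSC-3, -1.33 in L29 HSC-4 and 0.14 to 0.20 in the 4 L32 sets.

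Lysosome and autophagy genes, which resting HSCs are known to use, had 17 of 29 and 11 of 22 genes with higher values and medians of 0.12 and -0.05. Their summed levels in the high class were a median of 0.887 and 0.779 times those of the low class, higher in 2 and 1 of 6 sets. The interferon response list had 15 of 26 genes higher, but its summed level was lower in 6 of 6 sets, at 0.674 to 0.910 times, so the count of genes and the sum differ in direction.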
